A study of Rattus norvegicus with 9 samples.

Results

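The comparison set every ischemic array of the study, 6 in all, against its 3 sham arrays, and asked which genes stood at a shifted level in rats with middle cerebral artery occlusion (MCAO) whatever they had been injected with. Its members are all 9 arrays of the series. They came from the brain of male Sprague Dawley rats. The sham group was sham-operated, and the labels do not say whether it received injections. The other 2 groups of 3 arrays underwent MCAO and reperfusion and received intraperitoneal saline (vehicle) or salidroside at 50 mg/kg, daily for 6 days, the first injection 1 h after reperfusion. Salidroside is a phenylethanoid glycoside of Rhodiola. The ages of the rats and the exact piece of brain taken are not given in the sources used here; RNA of the MCAO rats came from dissected ischemic brain.

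MCAO closes the artery that feeds the lateral cortex and much of the striatum, and reopening it lets blood back into tissue that has been without oxygen and glucose. Neurons in the core die within hours to days. Microglia, invading macrophages and reactive astrocytes then clear and wall off the damaged tissue, while vessels and surviving neurons change their gene expression. In bulk tissue such as this, fewer cells of a type and less RNA per cell cannot be told apart.

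Each value is the fluorescence of a Cy3-labelled RNA at a probe of an Agilent rat array, on a log2 scale on which 0 is the array's own 75th percentile, so a difference of 1 is a 2-fold difference. A feature is a gene, or an accession or probe name where no symbol matched, measured by its brightest probe. A feature was called where limma gave a Benjamini-Hochberg adjusted p under 0.05 over all 22783 features. It was counted as shifted alike where it was called, all 6 MCAO arrays lay beyond all 3 sham arrays on the same side, and the smaller of the shifts in the vehicle and salidroside groups was at least 0.5 of the larger.

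Before any comparison, sham replicates 2 and 3 stood apart from the other arrays. Spots of 1 probe on 1 array differed with a spread (SD estimated from the median absolute deviation) of 0.056 to 0.091, over 512 bright probes printed several times. The spread between sham replicates 2 and 3 over the same probes was 0.0637, within that spot noise, although they were on different slides. For the other 35 pairs of arrays it was 0.17 to 0.42, and 0.287 between sham replicates 1 and 2. Both arrays were therefore averaged and counted as 1 sample, so that sham has 2 samples in every mean, SD and test given here. Sham replicate 2 lay nearer to salidroside replicate 2, with a spread of 0.17, than to sham replicate 1. With the 3 sham arrays taken as 3 samples, 758 features were called higher and 458 lower in MCAO, in place of 278 and 216.

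The arrays also differed in brightness. Their 75th percentile ran from 495.5 to 2340 signal units, and 65.63% of probes were well above background on sham replicate 3 against 81.97% to 88.53% on the other arrays. Arrays that share a scan identifier were taken to lie on 1 slide, and slides were numbered by scan time. Slide 1 carried vehicle replicates 1 and 3 and salidroside replicates 2 and 3, and slide 3 carried vehicle replicate 2 and salidroside replicate 1. The sham arrays were on slides 2 and 4, so slide and MCAO cannot be told apart. Neuronal transcripts were bright in every group: the summed linear signal of 13 measured pan-neuronal markers was 133 to 161 on the sham arrays and 112 to 158 on the MCAO arrays, in multiples of the 75th percentile.

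Of 22783 features, 494 (2.17%) were called, 278 higher (1.22%) and 216 lower (0.948%). At an unadjusted p under 0.05 there were 3926 (17.2%). Groups did not overlap for 2117 features higher (9.29%) and 1035 lower (4.54%), and 63.9% of all features had a log2 change above 0. Of the 494 calls, 470 had groups that did not overlap, and all 470 met the rule on the treatments' shifts: 255 were higher alike (1.12%) and 215 lower alike (0.944%). The smallest ratio of the shifts among them was 0.688 and the median 0.91. The fit counts any difference between the treatments as spread within MCAO, so calling a feature favours like shifts. These ratios therefore support nothing about the treatments. Between salidroside and vehicle, limma called 0 features, with 1141 (5.01%) at an unadjusted p under 0.05.

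The falls and the rises differed in brightness. Of the 215 features lower alike, 214 were well above background on all 3 sham arrays, and their median change was -1.26. Of the 255 higher alike, 28 were, 37 were above background on no sham array, and their median change was 1.39. Testing required a signal well above background throughout 1 or more of the 3 groups, so a feature that was dim in sham was tested through the MCAO groups in which it was brighter, and the count of rises is no support for their direction. With the features split by mean signal into 5 equal groups, in the dimmest group 3.97% were higher alike and 0.307% lower alike. In the middle group these shares were 0.241% and 1.69%, and in the brightest 0% and 0.658%.

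**Figure D1:**
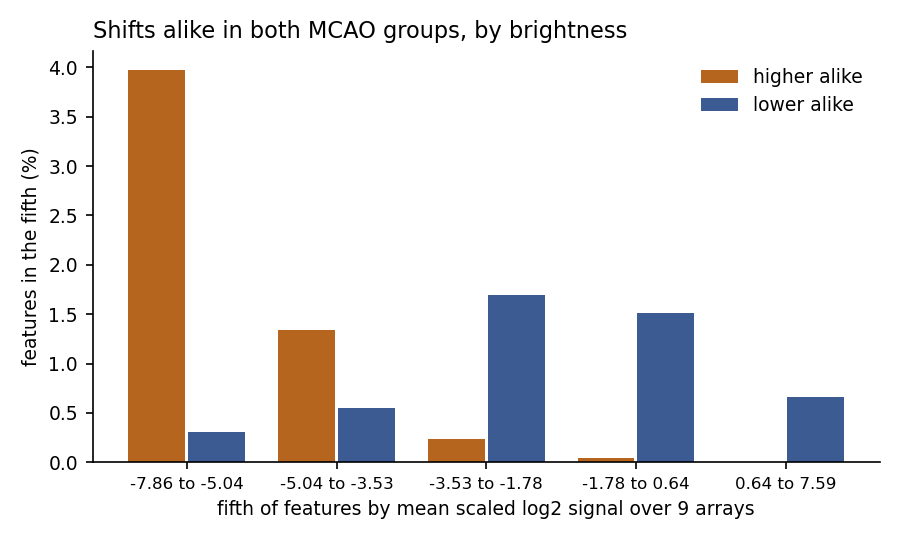
Share of features (y axis, percent) that were higher or lower alike in both MCAO groups, in 5 equal groups of features ordered by their mean scaled log2 signal over 9 arrays (x axis). Rises are most frequent in the dimmest group, at 3.97%, and falls in the middle one, at 1.69%.

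The median fall over the 215 features lay between -1.22 and -1.32 on each of the 6 MCAO arrays. The median rise over the 255 features was 1.46, 1.48, 1.59 and 1.65 on the arrays of slide 1, and 1.06 and 0.95 on those of slide 3. Sham replicate 2 stood at 0.48 and sham replicate 3 at -0.36 for the rises, against 0.02 and -0.01 for the falls. These values describe the features chosen: calling a feature requires a small spread within groups, so the even falls are set by the choice and support nothing.

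Id3 fell by 1.82 (SE 0.178) on the log2 scale, a 3.54-fold lower level, with a limma adjusted p of 0.00284. Arvcf, Snx15, Tbca and the pseudogene Gapdh-ps1 fell by 2.10, 1.81, 1.51 and 1.87. These 5 are the named features that stayed lower alike under each of 8 other settings of scaling, filter and model. Among all features 63 stayed lower alike in this way, and 0 stayed higher alike. These counts cannot compare rises with falls, since most rises were absent from some of the settings. The deposited table and the filter on probes above background on all 9 arrays each tested 28 of 255 rises and 211 of 215 falls. A model with a replicate block tested all of both and kept 7 rises and 63 falls. Those 63 falls are the ones kept under all 8 settings. The replicate block alone therefore set that list and the 5 named genes in it. Slide as a random block, the next strictest of the 8, kept 115 falls. Whether the replicate numbers mark a pairing could not be decided. In the replicate block model, replicate 3 held no sham sample, so vehicle replicate 3 and salidroside replicate 3 did not enter the estimated change. The 8 settings otherwise include no subsets of the arrays, and they leave out normexp, another background correction. Under normexp limma called 0 features and most named shifts were smaller. The other 58 of the 63 carry no gene symbol.

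The 250 bases before the start of the 4 protein-coding genes among them are shown 5′ to 3′ on the gene's own strand, since these genes stayed lower alike under the 8 settings. They are from RefSeq on the assembly GRCr8: chr5:153656041-153656290 on the plus strand, chr11:96150145-96150394 on the minus strand, chr1:212855451-212855700 on the minus strand and chr2:27746283-27746532 on the plus strand. Capitals mark the GC box GGGCGG and the CCAAT box, searched on both strands.
Id3: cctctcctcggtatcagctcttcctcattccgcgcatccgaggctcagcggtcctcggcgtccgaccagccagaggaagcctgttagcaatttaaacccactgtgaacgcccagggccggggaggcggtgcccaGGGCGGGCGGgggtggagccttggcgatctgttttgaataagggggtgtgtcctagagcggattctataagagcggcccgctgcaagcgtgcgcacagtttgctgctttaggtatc
Arvcf: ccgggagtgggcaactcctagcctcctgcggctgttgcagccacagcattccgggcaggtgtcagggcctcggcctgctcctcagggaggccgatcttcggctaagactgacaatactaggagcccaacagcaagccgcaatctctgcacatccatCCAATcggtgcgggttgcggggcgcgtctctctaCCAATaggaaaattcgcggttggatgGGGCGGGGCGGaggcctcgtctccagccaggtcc
Snx15: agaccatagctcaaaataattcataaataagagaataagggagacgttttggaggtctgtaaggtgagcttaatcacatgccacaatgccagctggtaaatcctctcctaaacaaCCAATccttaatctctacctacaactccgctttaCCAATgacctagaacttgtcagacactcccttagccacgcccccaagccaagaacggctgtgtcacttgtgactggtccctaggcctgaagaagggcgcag
Tbca: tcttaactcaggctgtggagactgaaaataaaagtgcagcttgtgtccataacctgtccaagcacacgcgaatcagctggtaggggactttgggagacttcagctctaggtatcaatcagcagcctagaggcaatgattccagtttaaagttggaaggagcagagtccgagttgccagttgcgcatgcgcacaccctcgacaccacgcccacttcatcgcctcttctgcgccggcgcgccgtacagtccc
Id3 held 2 GC boxes, beginning 116 and 112 bases before the start and overlapping each other. Arvcf held 2 GC boxes, also overlapping, at 34 and 29 bases, and 2 CCAAT boxes at 94 and 60 bases. Snx15 held 2 CCAAT boxes, at 135 and 101 bases, and Tbca had neither motif in this window. Of 33465 promoter windows of this length, 30.5% hold a GC box and 34% a CCAAT box. The G and C content was 61.2%, 63.2%, 46.8% and 54% for Id3, Arvcf, Snx15 and Tbca, against a median of 51.2% over all windows.

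Id3 encodes a helix-loop-helix protein without a DNA-binding region, which pairs with other helix-loop-helix factors and keeps them off DNA; it is a direct target of bone morphogenetic protein (BMP) signalling through Smad proteins. Its log2 level was 0.15, -0.11 and -0.12 on the sham arrays, and its lowest, median and highest MCAO values were -2.02, -1.84 and -1.55. No MCAO array came within 1 log2 unit of sham. The change was -1.76 with vehicle and -1.89 with salidroside, and salidroside minus vehicle was -0.13 (95% interval -0.55 to 0.29). On slide 1 it was -1.74 and on slide 3 -1.99. Id3 was called in 19 of 24 other settings, which include leaving out each array.

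The other members of its list, Id proteins and BMP-Smad feedback, did not move with it. Of 15 measured members 1 was called lower and 0 higher by limma, where 0.948% and 1.22% of all features were. At an unadjusted p under 0.05 there were 4, 3 of them higher, against 17.2% of all features. Id1 stood at 0.02 and Id4 at 0.08, the feedback inhibitor Smad7 at -0.00, and Id2 at -0.90 (limma adjusted p 0.441). Bmp4, a ligand of the pathway, lay above sham on all 6 MCAO arrays, if by little on vehicle replicate 2, at -1.90, -2.52 and -2.64 in sham and -1.89 to -1.03 in MCAO, with a change of 0.83 that did not pass (limma adjusted p 0.144). The list's median was -0.001, against 0.13 over all features.

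Arvcf, a catenin that binds the inner face of cadherins at cell contacts, was at -2.51, -2.83 and -3.07 in sham and at -5.09, -4.82 and -4.58 (lowest, median, highest) in MCAO. It fell by 2.10 (SE 0.197, limma adjusted p 0.00259), a 4.3-fold lower level; with normexp the Arvcf change was -1.03 (limma adjusted p 0.876). Snx15, a sorting nexin of endosomes, was at -1.35, -1.48 and -1.62 in sham and between -3.49 and -3.08 in MCAO, a 3.52-fold lower level (limma adjusted p 0.00284). Salidroside minus vehicle was -0.03 (95% interval -0.51 to 0.45) for Arvcf and 0.17 (-0.23 to 0.57) for Snx15. Both genes, like Id3, were chosen for shifts alike in both treatments, which favours small differences between the treatments.

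Tbca, a chaperone that takes up beta-tubulin on its way into the tubulin dimer, was at -0.78, -1.25 and -1.31 in sham and between -2.68 and -2.31 in MCAO. It fell by 1.51 (SE 0.183, limma adjusted p 0.00727). Gapdh-ps1 is annotated as a pseudogene of the glycolytic enzyme Gapdh. Its probe read 1.04, 1.48 and 1.71 in sham and between -0.77 and -0.28 in MCAO, a fall of 1.87 (limma adjusted p 0.00439). The probe chosen for Gapdh itself changed by 0.19 (limma adjusted p 0.735); a probe for a pseudogene can also take up RNA of its parent gene and of other copies, so its identity is uncertain.

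The remaining 7 of the 12 largest named falls ran from -1.34 to -1.88. Dolpp1, which recycles the dolichol carrier of protein glycosylation, fell by 1.65, and Pex26, which anchors the import machinery of peroxisomes, by 1.34. Supt16h, a subunit of the FACT histone chaperone, fell by 1.34; its sham arrays were at -0.49, -0.63 and -0.69 and the MCAO arrays between -2.16 and -1.52. Gipc2, a PDZ-domain protein, fell by 1.39 (limma adjusted p 0.0418). In all 4 genes the groups did not overlap. With normexp the changes of Dolpp1 and Gipc2 were -0.87 and -0.35 (limma adjusted p 0.876 for both). Dolpp1, Pex26 and Supt16h were called in 17 or 18 of 24 other settings and Gipc2 in 6.

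Arhgap25, Camsap2 and Zfyve28 had 2 tested probes each, and the probes disagreed. Arhgap25, a GTPase-activating protein for Rac found mainly in blood cells, changed by -1.88 at its brighter probe and 0.01 at the other. Camsap2, which holds the minus ends of microtubules, changed by -1.83 and 0.20. Zfyve28, an endosomal regulator of growth factor receptors, changed by -1.50 and 0.26. Their calls thus rest on 1 probe each. With normexp the brighter probes of Arhgap25 and Camsap2 changed by -1.18 and -0.85 (limma adjusted p 0.876 for both). For Camsap2 the sham arrays were also uneven, at -2.44, -3.77 and -4.03.

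**Figure D2:**
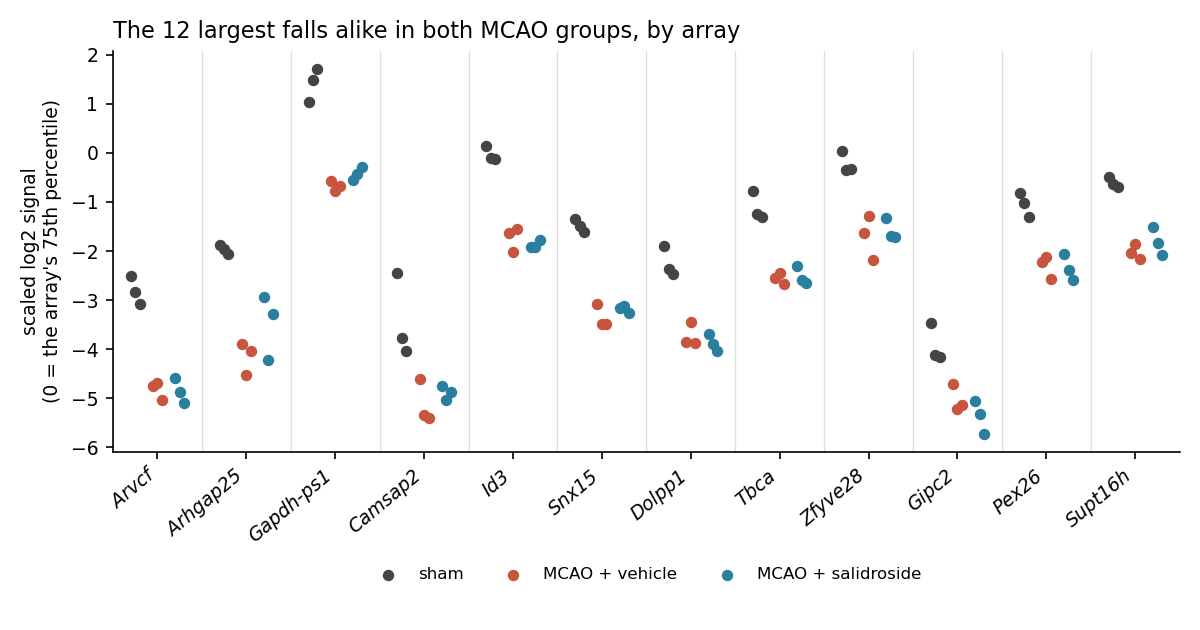
Scaled log2 signal (y axis, 0 is the array's 75th percentile) of the 12 largest named falls, 1 point per array, in sham (dark), MCAO with vehicle (red) and MCAO with salidroside (blue). In each gene all 6 MCAO arrays lie below all 3 sham arrays, and the red and blue points lie near each other in most genes. The rule that chose these genes requires the first and favours the second.

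Of the 31 named features lower alike, 5 more are given here, chosen after their values were seen. Tob1, which restrains cell division, fell by 1.26 (SE 0.17, limma adjusted p 0.0111), from 0.98, 0.71 and 0.69 in sham to between -0.58 and -0.18 in MCAO. Cox7c, a subunit of cytochrome c oxidase, fell by 1.05 (limma adjusted p 0.0202), from 3.21, 3.22 and 3.34 to between 2.02 and 2.47. Gnal, the G protein subunit that couples dopamine and adenosine receptors to cyclic AMP in the striatum, fell by 1.13 (limma adjusted p 0.0339). Sham replicate 1 read 0.42 for Gnal against -0.18 and -0.38 on the other sham arrays. Nsmce2, a SUMO ligase of the Smc5/6 complex, fell by 1.32 (limma adjusted p 0.0166), and Stc1, the secreted hormone stanniocalcin, by 1.05 (limma adjusted p 0.0294). With normexp the changes of Stc1 and Nsmce2 were -0.17 and -0.77 (limma adjusted p 0.921 and 0.876).

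The Cox7c fall was not shared by its list. Of 25 measured genes of the respiratory chain list, which leaves Cox7c out, limma called 0. An unadjusted p was under 0.05 for 1 of them, against 17.2% of all features. The list's median change was -0.05. Sdhc, a subunit of complex II, had the clearest difference, at 3.40, 3.59 and 3.70 in sham and 3.04 to 3.35 in MCAO, a change of -0.37 (limma adjusted p 0.25).

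Most of the falls have no gene symbol. Of the 215 features lower alike, 123 (57.2%) are known here by their probe name alone, a class that makes up 14.2% of all features, and 31 (14.4%) have a symbol, against 58.3% of all features. Of the 255 rises, 20.4% have the probe name alone and 45.9% a symbol. What these unnamed probes measure was not tested.

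The rises with a symbol were led by Cyp2b3, a cytochrome P450 known from liver, and Crhr2, the receptor for urocortins and, more weakly, for corticotropin-releasing hormone. Cyp2b3 read -6.37, -5.45 and -7.35 in sham and -4.44, -3.61 and -3.32 (lowest, median, highest) in MCAO. It rose by 2.59 (SE 0.304, limma adjusted p 0.0065); its other tested probe changed by 0.38. Crhr2 read -7.62, -6.53 and -7.46 in sham and -5.59 to -4.33 in MCAO, a rise of 2.49 (limma adjusted p 0.00969). Both lay near the lowest signals of the arrays: Cyp2b3 was well above background on 2 sham arrays and Crhr2 on 1. With normexp their changes were 1.33 and 1.07 (limma adjusted p 0.876 for both).

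Crhr1, the main receptor for corticotropin-releasing hormone, and Oxtr, the oxytocin receptor, were also higher alike; both were chosen after their values were seen. Crhr1 rose by 1.00 (SE 0.168, limma adjusted p 0.026), from -5.61, -5.03 and -6.05 in sham to between -4.79 and -4.36 in MCAO. Oxtr rose by 1.46 (limma adjusted p 0.0296). Hcar1, the receptor for lactate, likewise chosen, rose by 1.71 (limma adjusted p 0.0266), from -7.30, -6.46 and -7.50 to between -6.19 and -5.11. Sham replicate 2 was the highest sham array for all 3 receptors, at -5.03, -4.97 and -6.46, and lay below the lowest MCAO array, at -4.79, -4.48 and -6.19 for Crhr1, Oxtr and Hcar1. They were called in 10, 9 and 9 of 22 other settings. With normexp the changes of Crhr1, Oxtr and Hcar1 were 0.56, 0.84 and 0.76, and with quantile normalization that of Crhr1 was 0.64.

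The remaining 10 of the 12 largest rises ran from 1.76 to 2.31. Odorant receptors Or13a23, Or14j5e and Or1o2b rose by 2.31, 2.28 and 1.83, and Or13a23 was well above background on no sham array, so that its level was at least 2.08-fold higher. That bound sets the MCAO mean against the lowest signals well above background on the sham arrays. Mab21l4 was likewise below that limit in sham and at least 2.46-fold higher in MCAO (limma adjusted p 0.0143). Both bounds apply to this signal scale alone: with normexp the changes of Or13a23 and Mab21l4 were 0.77 each, under 2-fold. Ston1, an endocytic adaptor, rose by 2.23, Cfap206, a protein of motile cilia, by 1.90, Sult1c2, a sulfotransferase, by 1.86, Hsfy2, a heat shock factor relative, by 1.77, and Klk4, a secreted protease, by 1.76. With normexp the changes of these 9 genes lay between 0.73 (Cfap206) and 1.15 (Ston1), and none was called.

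Zfyve26, which acts in endosome and lysosome turnover, was the sole one of the 12 above background on all 9 arrays. It read -5.24, -4.11 and -4.80 in sham and -3.58, -2.95 and -2.62 in MCAO, a rise of 1.82 (SE 0.302, limma adjusted p 0.0249); its other probe changed by 0.26. For each of the 12, the mean shift was larger on slide 1 than on slide 3: 2.87 against 2.04 for Cyp2b3, 2.74 against 1.99 for Crhr2 and 2.04 against 1.39 for Zfyve26.

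**Figure D3:**
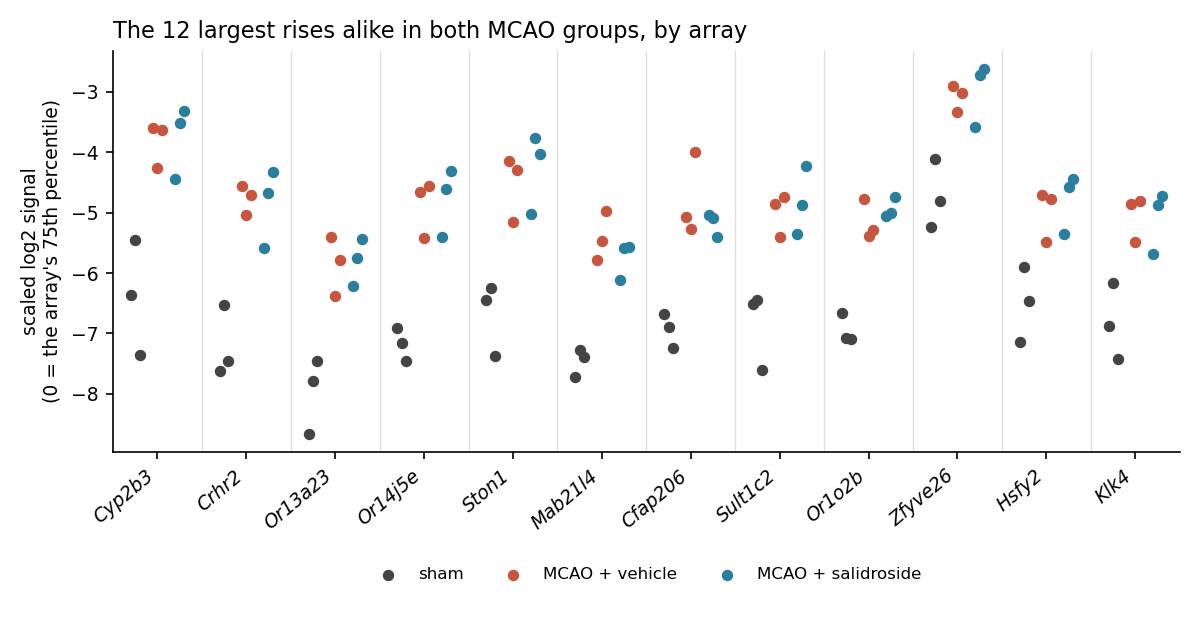
Scaled log2 signal (y axis, 0 is the array's 75th percentile) of the 12 largest named rises, 1 point per array, in sham (dark), MCAO with vehicle (red) and MCAO with salidroside (blue). All lie far below the 75th percentile, and in every gene all 6 MCAO arrays lie above all 3 sham arrays.

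Receptors of smell were frequent among the rises, a group chosen after its values were seen. Of 708 features whose symbol marks an olfactory, vomeronasal or trace amine receptor, 31 (4.38%) were higher alike and 0 lower, against 224 of 22075 other features (1.01%) higher. Their median change was 0.44, against 0.12 for the others. By array the median stood at -0.23, 0.40 and 0.09 on sham replicates 1 to 3, between 0.60 and 0.91 on the 4 MCAO arrays of slide 1, and at -0.05 and 0.00 on the MCAO arrays of slide 3. These genes are dim on all arrays, with a median scaled log2 signal of -4.78, and the MCAO arrays of slide 3 lay within the range of the sham arrays. Of all features, 3.97% of the dimmest of the 5 brightness groups and 1.34% of the next were higher alike. Of the receptors, 54.1% were well above background on all 3 sham arrays, against 79.4% of the others. The receptors were not compared with other features of like brightness.

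Genes induced by glucocorticoids, the stress steroids, included 1 of the calls. Of 12 measured, Zbtb16 was called higher, where 1.22% of all features were, and 0 were called lower. For 6 the groups did not overlap, all higher, where the share over all features is 9.29%. Zbtb16, a zinc-finger repressor, read -7.69, -6.44 and -7.51 in sham and -6.05, -5.82 and -5.16 in MCAO, a rise of 1.58 (SE 0.266, limma adjusted p 0.026). It was dim, above background on 1 sham array, and was called in 8 of 22 other settings; with normexp its change was 0.73 (limma adjusted p 0.876). Per1, a clock gene with a glucocorticoid-responsive promoter, read -4.68, -4.04 and -4.41 in sham and -3.90 to -2.97 in MCAO, a change of 1.02 (limma adjusted p 0.103). Tsc22d3, a mediator of glucocorticoid effects in immune cells, was at 1.77, 1.77 and 1.80 in sham and 2.02 to 2.46 in MCAO, a change of 0.47 (limma adjusted p 0.183).

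Angptl4, Sgk1 and Errfi1 made up the rest of the 6, with changes of 0.98, 1.1 and 0.44 that did not pass. Fkbp5, another standard target, changed by 0.18 and lay on both sides of 0 by treatment, at 0.60 with vehicle and -0.24 with salidroside. The list's median was 0.56, and by array it was 0.25 to 0.79 in MCAO. The receptor itself, Nr3c1, chosen after its values were seen, read 0.58, 0.41 and 0.34 in sham and -0.87 to -0.04 in MCAO, a change of -1.01 at its brighter probe (limma adjusted p 0.0585) and of -0.07 at the other.

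Among cytokines and chemokines, 1 of 22 measured genes was called higher, where 1.22% of all features were. Ccl4, a chemokine that draws monocytes and T cells, rose by 1.36 (SE 0.283), from -5.34, -5.21 and -6.15 in sham to between -4.66 and -3.77 in MCAO, with a limma adjusted p of 0.0491 just under the threshold; it was called in 8 of 22 other settings, and with normexp its change was 0.78 (limma adjusted p 0.876). Ccl3, its close relative, changed by 2.05, but its groups overlapped, since salidroside replicate 1, at -5.77, lay below sham replicate 1, at -5.70. Ccl2 and Cxcl1 lay above sham on all 6 arrays with changes of 1.17 and 1.1 that did not pass. Il1b stood at -0.09, Tnf at 0.33 and Il6 at 0.80.

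Marker lists of glia and invading cells had medians above that of all features, and their levels varied widely over the 6 MCAO arrays. None of the 16 reactive astrocyte, 13 microglia, 12 macrophage and monocyte, 17 complement or 10 ependymal genes measured was called by limma, with 2, 2, 3, 4 and 6 of them at an unadjusted p under 0.05, where 17.2% of all features were. Their changes were above 0 in 14, 12, 12, 17 and 10 of them, where 63.9% of all features were. Their medians were 0.87, 0.76, 1.11, 0.81 and 1.29, against 0.13 over all features. By array the macrophage list ran from 0.10 on salidroside replicate 1 to 2.12 on vehicle replicate 3, and the reactive astrocyte list from -0.20 to 2.10 on the same arrays.

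The macrophage markers' summed signal was 7.68 to 9.78 in sham and 9.97 to 40.3 in MCAO, in multiples of the 75th percentile. Cd68, the lysosomal protein of phagocytes, was 0.12, 0.08 and 1.40 with vehicle and -0.34, 0.83 and 1.46 with salidroside, against -0.14, 0.62 and 0.33 in sham. Spp1, osteopontin, had a mean change of 3.37 (SE 1.47, limma adjusted p 0.286), but salidroside replicate 1, at -4.60, lay below sham replicate 1, at -2.74. Gfap, the astrocyte filament, read -4.02, -3.09 and -3.15 in sham and -3.87 on salidroside replicate 1, the others reaching from -2.44 to -1.35. Vim, Lcn2, Timp1 and C1qc changed by 0.97, 1.93, 1.43 and 1.37; none passed (limma adjusted p 0.257 to 0.425). Lcn2 and Timp1 lay above sham on all 6 arrays.

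The part of these cells in the shifts was not tested. On salidroside replicate 1, where the macrophage, microglia, complement and reactive astrocyte medians were 0.10, 0.06, 0.08 and -0.20, the median fall over the 215 features was -1.25. On vehicle replicate 3, where they were 2.12, 1.42, 1.72 and 2.10, it was -1.29. The 215 features were chosen for falling on all 6 arrays with little spread, which fixes much of this likeness. The median rise over the 255 features was 0.95 on salidroside replicate 1 and 1.48 on vehicle replicate 3, which were on different slides. On salidroside replicate 2, with a macrophage median of 0.52, it was 1.59.

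The ependymal list rests on cells that line the ventricles. Whether its levels, or those of the choroid plexus list, follow how much ventricle wall each piece of tissue held was not tested. Foxj1, the master factor of motile cilia, read -2.88, -2.14 and -2.33 in sham, -2.49 on salidroside replicate 1 and -0.91 to -0.03 on the other MCAO arrays. Tmem212 had a mean change of 3.42 with an SE of 1.09 (limma adjusted p 0.147). Ttr, transthyretin of the choroid plexus, was -1.31, -2.11 and -2.10 in sham, and 4.28, -2.70 and 6.43 with vehicle and -3.46, -3.03 and 6.42 with salidroside. It was thus over 5 log2 units higher than sham on 3 MCAO arrays and lower on 3. The part of Ttr in the rises was not tested. On the arrays with low Ttr, vehicle replicate 2 and salidroside replicates 1 and 2, the median rise was 1.06, 0.95 and 1.59. On those with high Ttr, vehicle replicates 1 and 3 and salidroside replicate 3, it was 1.46, 1.48 and 1.65.

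**Figure D4:**
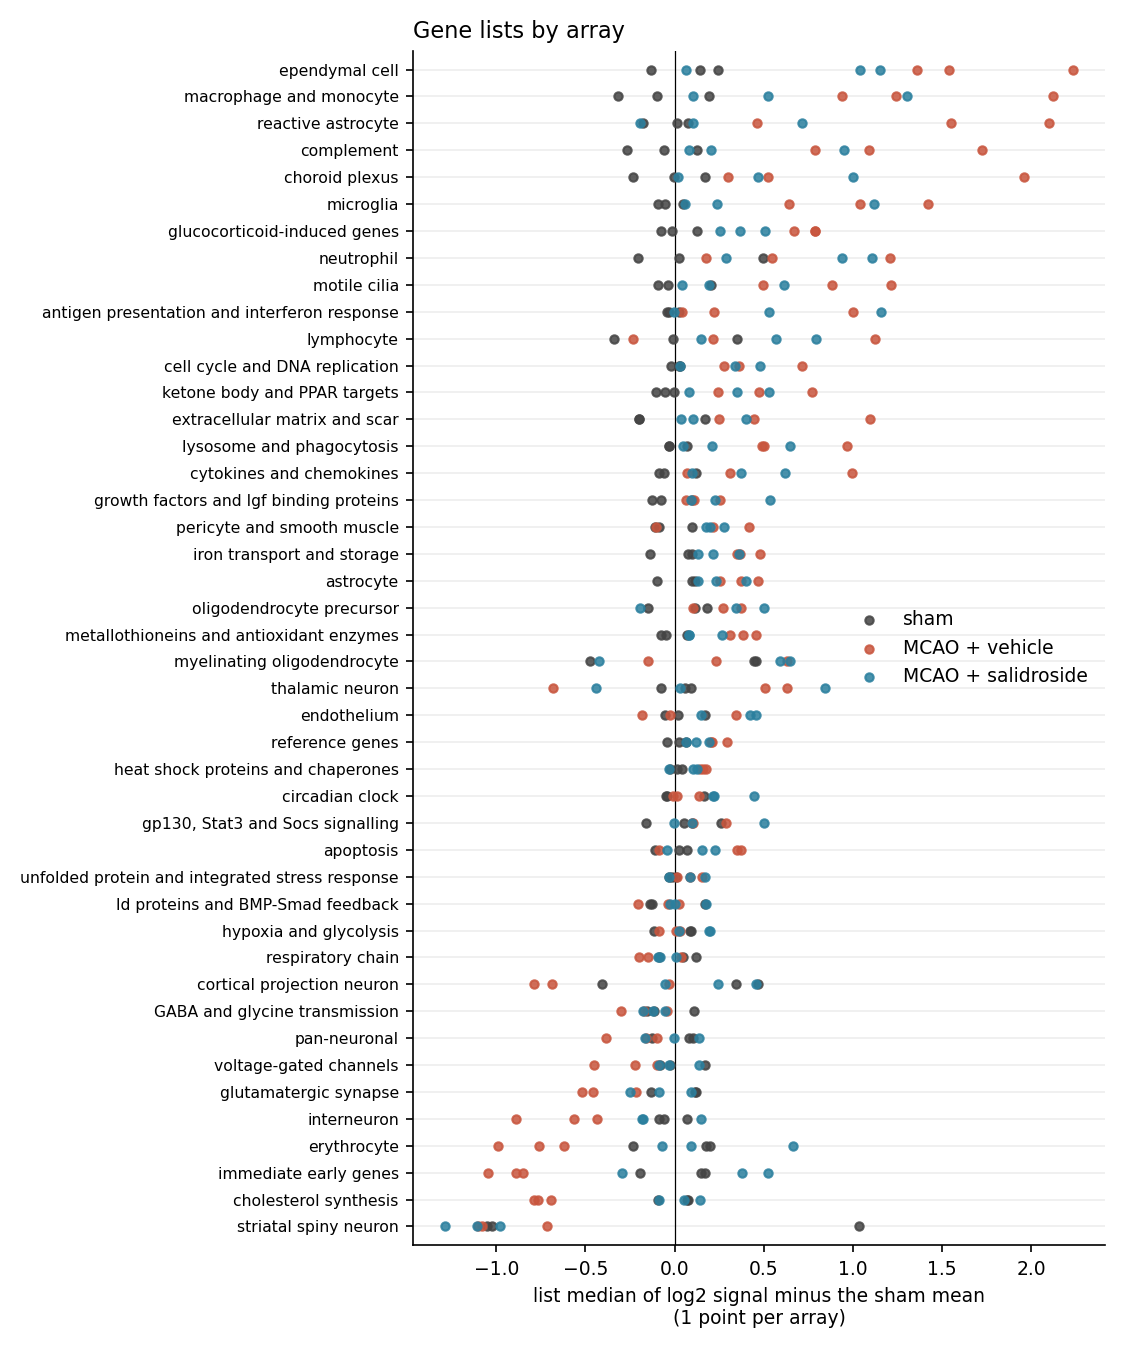
For each of 44 gene lists (rows), the median over measured members of the log2 signal minus the sham mean (x axis), 1 point per array, in sham (dark), MCAO with vehicle (red) and MCAO with salidroside (blue). Lists of glia and invading cells spread widely over the 6 MCAO arrays, and the striatal list has 1 sham array at 1.04 and the other 2 at -1.02 and -1.05.

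Neuronal lists lay near or below the median of all features. Of 13 pan-neuronal genes limma called 0, with 2 at an unadjusted p under 0.05, where 17.2% of all features were. The list's median was -0.16. Thy1, a surface glycoprotein of projection neurons, read -0.55, -0.38 and -0.36 in sham and -1.58 to -0.79 in MCAO, a change of -0.87 (limma adjusted p 0.0825). Map2, a dendritic microtubule protein, changed by -0.54 (limma adjusted p 0.269), also without overlap, while Snap25, Stmn2 and Uchl1 were at -0.27, -0.16 and 0.07. Of 21 genes of GABA and glycine transmission, Gabra4 and Glrb were below sham on all 6 arrays, with changes of -0.89 and -0.41. Limma called 0 of the 21, with 3 at an unadjusted p under 0.05, where 17.2% of all features were.

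The striatal spiny neuron list had the lowest median, -1.06. Limma called 0 of its 12 genes, with 5 at an unadjusted p under 0.05, where 17.2% of all features were. The low median rests on sham replicate 1. On that array the list's median deviation was 1.04, against -1.02 and -1.05 on sham replicates 2 and 3 and -1.29 to -0.72 on the MCAO arrays. Ppp1r1b, the dopamine-regulated phosphatase inhibitor, read 3.21 there, 1.98 and 2.00 on the other sham arrays, and 1.47 to 1.91 in MCAO. Its other tested probe changed by 0.18. Sham replicates 2 and 3 thus lay within the range of the MCAO arrays for this list, and sham replicate 1 lay apart from all other arrays.

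Genes of low oxygen and of the vessel wall held some shifts without overlap that did not pass. Of 20 measured genes of hypoxia and glycolysis limma called 0, with 3 at an unadjusted p under 0.05, where 17.2% of all features were. The list's median was -0.02. Slc2a1, the glucose transporter of the blood-brain barrier, read 0.47, 0.89 and 0.86 in sham and 1.26, 1.39 and 1.79 (lowest, median, highest) in MCAO, a change of 0.78 (limma adjusted p 0.0756). Adm, the vasodilator adrenomedullin, read -3.22, -4.07 and -4.34 in sham and -3.12 to -2.11 in MCAO, a change of 1.13 (limma adjusted p 0.104). The enzymes Ldha, Pgk1 and Pkm were at -0.37, -0.12 and 0.30.

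Of 13 endothelial genes limma called 0, with 4 at an unadjusted p under 0.05, where 17.2% of all features were. Of these 4, 2 were higher and 2 lower. Abcb1a, the drug efflux pump of brain capillaries, read -1.94, -2.38 and -2.39 in sham and -3.34 to -2.79 in MCAO, a change of -0.99 (limma adjusted p 0.0605). Kdr, the main receptor for vascular endothelial growth factor, changed by -0.56 and Mfsd2a, the lipid transporter of the barrier, by 0.82, each without overlap. The list's median was 0.16.

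Of 18 metallothionein and antioxidant genes measured, limma called 0, with 2 at an unadjusted p under 0.05, where 17.2% of all features were. The changes of 16 were above 0 and of 2 below, where 63.9% of all features were above 0. The list's median was 0.23. Gclm, the modifier subunit of the enzyme that starts glutathione synthesis, read -4.21, -5.05 and -5.17 in sham and -7.38, -6.99 and -5.45 (lowest, median, highest) in MCAO. Its change of -2.15 (SE 0.474) did not pass with sham counted as 2 samples (limma adjusted p 0.0569), and it was above background on 3 of 6 MCAO arrays. The catalytic subunit Gclc was at 0.03. Hmox1, heme oxygenase, lay above sham on all 6 arrays with a change of 1.04 (limma adjusted p 0.255).

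For several well-known stroke genes the vehicle and salidroside arrays lay apart, though limma called 0 features between the treatments. Mt1, a metallothionein, read 2.39, 2.11 and 2.14 in sham, 4.89, 4.02 and 4.96 with vehicle and 2.36, 2.29 and 3.40 with salidroside. Arc, an immediate early gene of synapses, read 2.97, 3.97 and 4.08 in sham, 1.29, 0.27 and -0.22 with vehicle and between 3.47 and 4.09 with salidroside. Egr2 and Fos were likewise lower with vehicle, with salidroside minus vehicle of 3.84 (95% interval 2.82 to 4.87) and 1.88 (1.04 to 2.71). None of these differences passed over all features (limma adjusted p 0.142 for Egr2, 0.184 for Arc, 0.5 for Mt1 and Fos). The joined changes had limma adjusted p of 0.385 to 0.681. In a fit with the 3 groups kept apart, vehicle minus sham passed for Arc and Egr2 (limma adjusted p 0.0494 and 0.0424). With the vehicle arrays alone as MCAO it did not (limma adjusted p 0.106 and 0.105). Of 22 genes of cholesterol synthesis, limma called 0, with 3 at an unadjusted p under 0.05, where 17.2% of all features were. The list's median was -0.72 with vehicle and 0.06 with salidroside.

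The calls depended on single arrays. Leaving out 1 array gave 1 to 868 features called higher and 31 to 269 called lower; the lowest counts came without sham replicate 1, when sham was 1 sample. Without vehicle replicates 1 or 3 or salidroside replicates 2 or 3, all on slide 1, features called higher numbered 34, 47, 27 and 51. Without vehicle replicate 2 or salidroside replicate 1, on slide 3, they numbered 512 and 868. With the slide 1 arrays alone as MCAO there were 2567 higher and 423 lower, and with the 2 slide 3 arrays alone limma called 0, with 1634 at an unadjusted p under 0.05. In each of these subsets, all 255 rises and all 215 falls kept their sign, a property the choice of groups that do not overlap gives them.

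**Figure D5:**
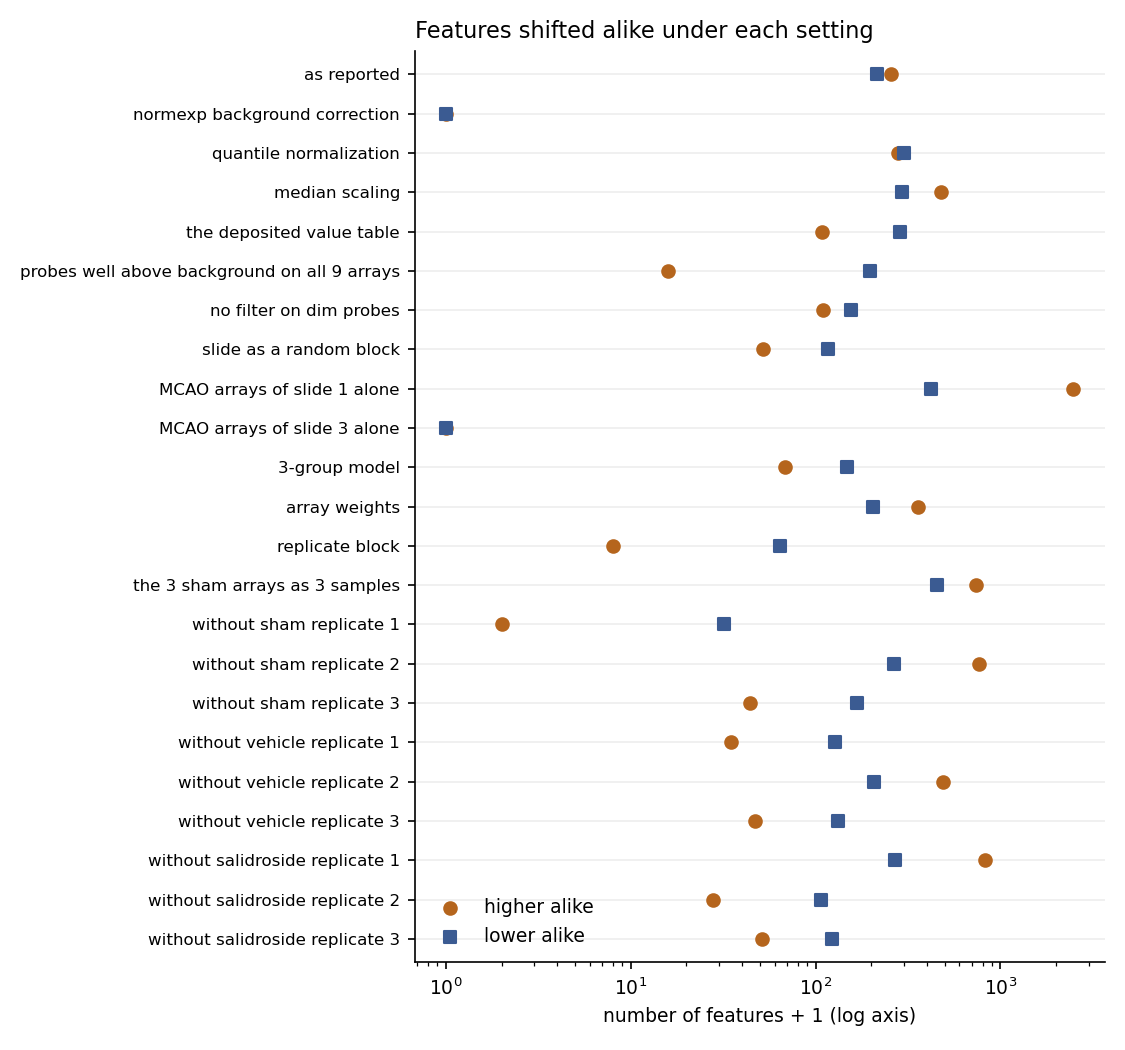
Number of features shifted alike plus 1 (x axis, log scale), higher (circles) and lower (squares), under each setting (rows). The rises range from 0 to 2479 and the falls from 0 to 455, and the falls change less than the rises under most settings.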

How the data were processed

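RNA of 9 rat brain samples was read on 1-colour arrays. The scans were quantified by the authors in Agilent Feature Extraction 11.0.1.1, per the file headers, and the deposited signals are background-subtracted fluorescence intensity on a linear scale, not normalized between arrays. An alternative used the table the authors deposited, with log2 values for 19477 probes. In R 4.3.3 with limma 3.58.1, log2 signals minus each array's 75th percentile over 42877 non-control spots were averaged per probe, without outlier spots. Probes were tested where the signal was well above background throughout 1 or more groups (25576 of 30367). The brightest probe per name gave 22783 features, 13276 named through transcript accessions with a GRCr8 table, used for names and promoters; the array was designed on rn4. Of these, 61 lacked a value on an array and were fitted on the others.

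The planned fit of 6 MCAO against 3 sham arrays was replaced by one with sham replicates 2 and 3 averaged (6 residual and 2.8 prior degrees of freedom), after the data were seen. The labels number 3 samples per group, of which sham replicates 2 and 3 were fitted as 1. Whether those came from different animals is not known here. The p-values measure the spread between the fitted samples. In simulated data of this size, 16% of log2 changes of 1 and 82% of 2 were recovered, with 3 false calls. The simulated noise was independent between arrays, with no slide effect and no difference between treatments. Its false calls therefore do not measure those in the real arrays. The number of arrays limits the precision. Genes named are the 12 largest shifts alike in each direction, up to 4 members of each of 44 lists with the smallest p, 12 preset genes (of which Rbfox3 was not tested), and those said to be chosen afterwards. The members, lists and tests were chosen with earlier results of these data known. Alternatives are below.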

Additional observations from a re-analysis of the deposited data

Results flagged for a closer look

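In 5 of 94 named genes, 1 of the 6 MCAO arrays stood apart from the other 5 by more than Dixon's 95% critical value; chance marks about 1 group in 20. Cfap206 was highest on vehicle replicate 3, at -3.99, with the nearest array at -5.04. Gclm was highest on salidroside replicate 1, at -5.45, against -6.94. Zbtb16 was highest on vehicle replicate 2, at -5.16, against -5.78, and Sdhc on the same array, at 3.35, against 3.14. Foxj1 was lowest on salidroside replicate 1, at -2.49, against -0.91.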

How the results depend on the processing

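Counts are given in the order called higher, called lower, higher alike and lower alike; the reported counts are 278, 216, 255 and 215. Quantile normalization gave 300, 300, 279 and 299, and array weights 401, 204, 357 and 203, each within 1.5 times. The following settings moved at least 1 count further, with the limma test throughout. Median scaling gave 511, 294, 475 and 293. The deposited table, with 17561 features, gave 107, 285, 107 and 285. Probes above background on all 9 arrays, 17811 features, gave 15, 197, 15 and 196, and no filter on dim probes 113, 158, 108 and 155. Slide as a random block, with the averaged sample placed on slide 2 and a correlation of 0.164, gave 51, 116, 51 and 115. The 3-group model gave 73, 147, 67 and 146. The 3 sham arrays as 3 samples, the planned fit, gave 758, 458, 732 and 455. MCAO arrays of slide 1 alone gave 2567, 423, 2479 and 422. Normexp background correction, run on the median pixel signal and chosen after seeing the data, gave 0, 0, 0 and 0, with 1000 features at an unadjusted p under 0.05. MCAO arrays of slide 3 alone gave 0, 0, 0 and 0. Vehicle arrays alone, and salidroside arrays alone, gave 0 called higher and 0 lower, with 3733 and 2698 features at an unadjusted p under 0.05. The cause of these shifts was not tested.

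The share of calls that were higher was 56.3% as reported, 50% after quantile normalization, 63.5% with median scaling and 27.3% in the deposited table. It was 7.1% with probes above background on all arrays, 30.5% with the slide block and 33.2% with 3 groups. The median change over all features moved from 0.130 to 0.001 after quantile normalization, -0.027 with median scaling and 0.286 with normexp. Under these and the other settings all tested features kept the sign of their shift, except 2 of 215 falls under normexp (213 kept it). Leaving out 1 array gave 1 to 868 higher, 31 to 269 lower, 1 to 819 higher alike and 31 to 268 lower alike.

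Replicate numbers are shared between the groups. Between same-numbered arrays, deviations from the group means correlated with r from -0.187 to 0.255. With 3 arrays per group these values cannot decide whether the numbers mark a pairing. A replicate block, with the averaged sample as replicate 2 and no sham sample as replicate 3, gave 7, 63, 7 and 63.

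Of the named genes, the change turned sign for Cd68 (-0.30) and Ttr (-1.37) with slide 3 arrays alone. It also did so for Fos (0.27), Arc (0.36) and Egr2 (0.54) with salidroside arrays alone. As MCAO minus sham, none of these genes was called under any setting. Vehicle minus sham, with the 3 groups kept apart, passed for Arc and Egr2. Signal over background limits the rises: 28 of 255 were above background on all sham arrays.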
